A study of Mus musculus with 39 samples.

Results

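The 10 genes described here encode enzymes that break down amino acids and dispose of their nitrogen. They were chosen by name, *Tat*, *Got1*, *Gpt*, *Tdo2*, *Gls2*, *Cps1*, *Otc*, *Ass1*, *Asl* and *Arg1*, from the 46078 genes of the count files, and all 10 were found. The rule uses names and no measured value, but it was set with earlier results of these data known.

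In fasting, and under glucocorticoids, amino acids released from muscle protein are taken up by the liver, where transaminases move the amino groups onto 2-oxoglutarate and the carbon skeletons feed gluconeogenesis. The ammonium set free by glutamate and glutamine breakdown is fixed by the urea cycle, which begins in the mitochondrion and ends in the cytosol of hepatocytes. *Tat*, tyrosine aminotransferase, and *Tdo2*, tryptophan 2,3-dioxygenase, are classic hepatic genes of the glucocorticoid receptor (GR), a nuclear receptor that binds DNA once it has bound its ligand. E47 is a basic helix-loop-helix protein that binds E-boxes (CANNTG) and is made, with E12, from the gene *Tcf3*.

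The study asked whether E47 changes the response of mouse tissues to glucocorticoids, and RNA was sequenced from 39 tissue samples of male C57BL/6 mice in 12 groups. Livers of untreated mice came from E47KO animals (E47-/-, a germline deletion in all cells, n = 6) and wild type (WT) animals (n = 5). Livers after 3 weeks of corticosterone (Cort) in the drinking water at 100 µg/ml came from 4 WT and 4 E47KO mice. Livers after 3 weeks of dexamethasone (Dex, a synthetic GR ligand) in the water at 10 µg/ml came from 2 WT and 3 E47KO mice, with skeletal muscle of 2 WT and 3 E47KO mice and white adipose tissue (WAT) of 2 WT and 2 E47KO mice. Livers taken 1 h after an injection of Dex at 1 mg/kg came from 3 E47LKO mice, in which an Albumin-Cre transgene deletes floxed E47 in hepatocytes, and 3 floxed mice without Cre, 1 of which carried the floxed allele on 1 chromosome only. E47KO mice lack mature B cells, so their tissues differ in that cell type as well. The mice given hormone for 3 weeks were killed after a glucose tolerance test that followed an overnight fast, and each treatment was a separate experiment. Treatment, fasting, the glucose load, the experiment and its libraries therefore cannot be told apart in any comparison of treated with untreated livers. The 3-week Dex libraries were labelled unstranded. Untreated and Cort libraries were labelled stranded, with 96.9 to 97.5% and 50.1% of stranded counts on the larger strand. In bulk tissue, fewer cells of a type and less RNA per cell cannot be told apart.

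Counts assigned to genes ranged from 15.5 to 54.6 M per library. *Tcf3* counts did not check the deletion, since E12 comes from the same gene: 16 livers with E47 deleted held 6.93 to 20.7 CPM (counts scaled to library size) of *Tcf3*, and 14 control livers held 6.28 to 19.2. The summed CPM of 4 B cell markers, which E47KO mice should lack, lay apart between genotypes in untreated livers (0.0887 to 0.406 in E47KO and 1.43 to 3.32 in WT) and after Cort (0.0265 to 0.156 and 0.271 to 0.350). In livers after 3 weeks of Dex it overlapped (0 to 0.241 in E47KO and 0.0524 to 0.0642 in WT). It also overlapped in muscle (0.175 to 0.238 and 0.151 to 0.379) and in WAT (0.245 to 0.329 and 0.213 to 0.251). These markers therefore do not check the genotype labels in any tissue after 3 weeks of Dex. All 7 hepatocyte markers found were counted in every liver and summed to 87527 to 167325 CPM, against 2849 to 5775 in WAT and 8.54 to 247 in muscle. *Cyp2e1*, which was not particular to liver, made 2799 to 5702 CPM of the WAT sums and 7.01 to 125 CPM of the muscle sums. Skeletal muscle markers summed to 0.0369 to 395 CPM in the untreated livers.

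Promoter sequence is shown for 3 members that changed in these livers and whose windows hold letters of the general E-box pattern CANNTG. For 5 members, *Tat*, *Tdo2*, *Got1*, *Otc* and *Ass1*, a RefSeq promoter on GRCm38.p6 was matched, and the 250 bases before the start are printed 5′ to 3′ on the gene's strand for *Tat* (chr8:109990186-109990435, plus strand), *Otc* (chrX:10252055-10252304, plus strand) and *Ass1* (chr2:31470020-31470269, plus strand), with every CANNTG in capitals.
Tat: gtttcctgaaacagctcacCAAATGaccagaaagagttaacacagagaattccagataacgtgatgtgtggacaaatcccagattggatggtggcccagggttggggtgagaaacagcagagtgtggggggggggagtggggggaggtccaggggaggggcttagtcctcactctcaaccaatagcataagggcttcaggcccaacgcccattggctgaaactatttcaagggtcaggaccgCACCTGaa
Otc: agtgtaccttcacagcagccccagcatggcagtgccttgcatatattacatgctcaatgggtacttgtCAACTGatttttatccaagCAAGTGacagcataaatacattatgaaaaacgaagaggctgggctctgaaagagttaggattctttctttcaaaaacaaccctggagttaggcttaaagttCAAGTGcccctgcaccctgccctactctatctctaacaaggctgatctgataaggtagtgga
Ass1: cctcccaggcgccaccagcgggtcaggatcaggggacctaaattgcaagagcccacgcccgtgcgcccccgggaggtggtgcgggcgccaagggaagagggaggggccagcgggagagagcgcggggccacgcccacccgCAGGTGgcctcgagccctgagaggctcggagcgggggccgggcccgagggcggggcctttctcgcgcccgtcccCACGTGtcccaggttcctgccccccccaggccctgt
The *Tat* window held CAAATG at 231 bases and CACCTG at 8 bases before the start. In the *Otc* window, CAAGTG stood at 163 and again at 62 bases, with a CAACTG further from the start. The *Ass1* window held CAGGTG at 110 bases and CACGTG at 36 bases, and it was rich in G and C (75.6%, against 43.6% for *Otc* and a median of 52.4% over 32851 promoters). *Tdo2* and *Got1* held no CANNTG. The letters CANNTG, which read the same on both strands, were present in 66.2% of all promoters of this length and CAGGTG or its complement CACCTG, a subset of them, in 17.2%. The arm of the GR response element searched, TGTTCT on either strand, was in none of the 5 windows and in 16.1% of all promoters. These matches are letters in a window and not measured binding.

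Per kilobase of exon, the untreated WT livers gave *Ass1*, argininosuccinate synthase, the highest level, 1596 ± 363 CPM per kb (SD, n = 5). It was followed by *Cps1*, the carbamoyl phosphate synthetase that starts the cycle, at 873 ± 76.9 CPM per kb, and then by *Arg1*, the arginase that releases urea (753 ± 124), and *Tat* (738 ± 264). The livers' values for *Cps1*, *Arg1* and *Tat* overlapped. *Tdo2* followed at 456 ± 61.1 CPM per kb, and its values overlapped with those of no other member. The lowest *Ass1* value (1183 CPM per kb) lay above all of *Cps1* and *Arg1* but below the highest of *Tat* (1202). The other five lay close together: *Asl*, argininosuccinate lyase, at 162 ± 32.0, *Otc*, ornithine transcarbamylase, at 150 ± 18.7, *Gls2*, the liver glutaminase, at 144 ± 21.4, *Got1*, the cytosolic aspartate aminotransferase, at 116 ± 43.7 and *Gpt*, alanine aminotransferase, at 116 ± 25.4 CPM per kb. All further levels are CPM, which compare libraries and not genes.

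**Figure D1:**
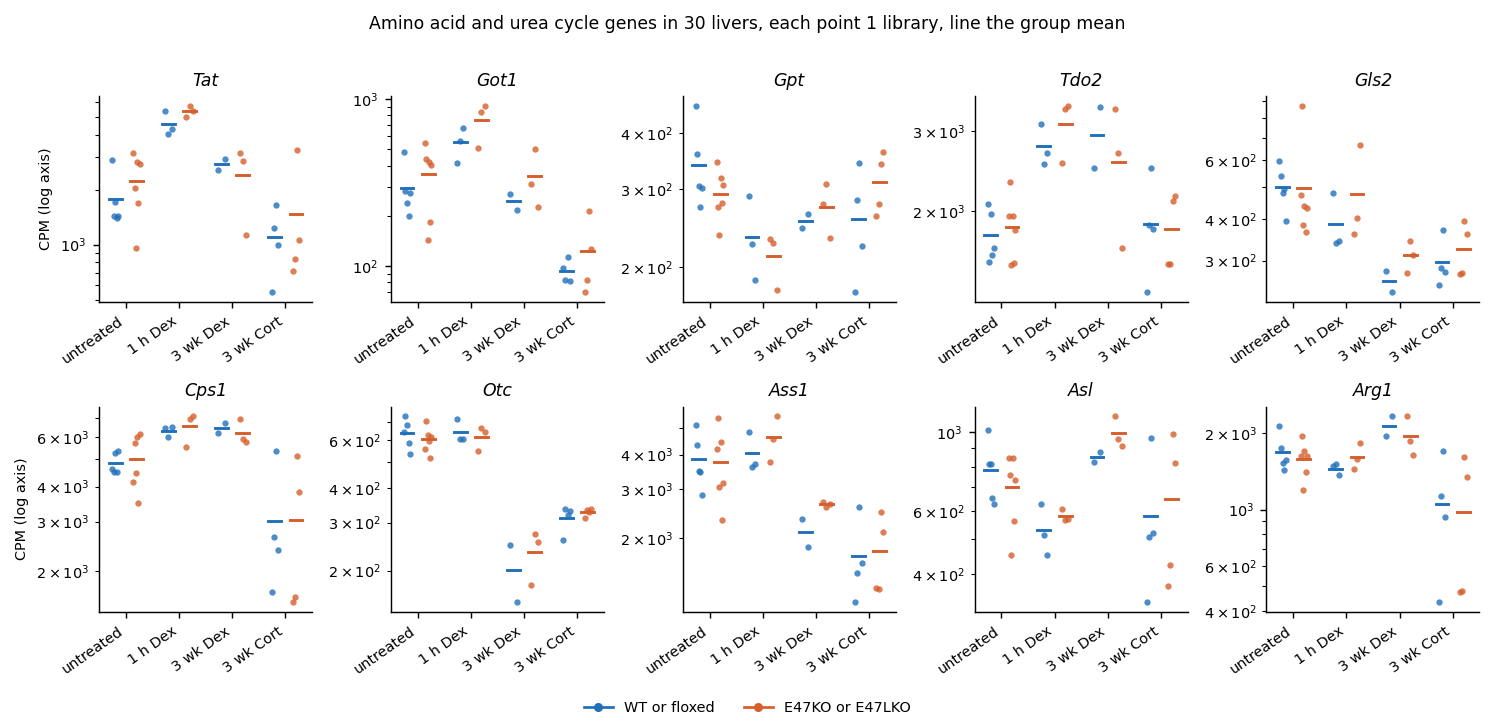
CPM of each of the 10 genes (log axis) in each of 30 livers, by treatment and genotype; short lines are group means. *Otc* sits at 536 to 738 CPM in the untreated WT livers and at 153 to 335 CPM in the WT livers after 3 weeks of either hormone.

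No member passed the test between genotypes in the liver. *Tat* was at 1405, 1436, 1438, 1708 and 2890 CPM in untreated WT livers and at 952 to 3164 CPM (median 2404) in untreated E47KO livers. After 3 weeks of Dex it was at 2560 and 2952 CPM in WT and at 1134, 2872 and 3169 CPM in E47KO livers, and after 3 weeks of Cort at 548, 994, 1240 and 1646 CPM in WT and at 716, 837, 1063 and 3291 CPM in E47KO livers. In each of these sets the ranges of the genotypes overlapped. After 1 h of Dex the floxed livers held 4026, 4286 and 5401 CPM of *Tat* and the E47LKO livers 5006, 5416 and 5758 CPM, which overlapped as well.

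In each of the 4 liver sets, 0 of 10 members differed between genotypes in edgeR's quasi-likelihood fit at an adjusted p (Benjamini-Hochberg) under 0.05, and 0 of 10 did at an unadjusted p under 0.05 or by DESeq2. Over all genes, edgeR called 0.0288% in untreated livers (3.63% unadjusted), 0.00752% after 3 weeks of Dex (3.08%), 0.0274% after Cort (9.84%) and 0% after 1 h of Dex (3.70%, and 4 genes by DESeq2). DESeq2 called more genes than edgeR in each of the 4 sets, and by far the most after Cort, as given under processing below. The log2 differences, E47KO minus WT, ran from -0.21 (*Gpt*) to 0.34 (*Tat*) in untreated livers with standard errors of 0.12 to 0.33. They ran from -0.20 (*Tat*) to 0.52 (*Got1*) after 3 weeks of Dex (SE 0.16 to 0.42) and from -0.10 (*Arg1*) to 0.42 (*Tat*) after Cort (SE 0.09 to 0.52). After 1 h of Dex, E47LKO minus floxed ran from -0.13 (*Gpt*) to 0.46 (*Got1*, SE 0.25). The lowest unadjusted p-values of the members in these edgeR fits were 0.0926 (*Tat*, 1 h Dex), 0.119 (*Ass1*, 3 weeks of Dex), 0.159 (*Gpt*, untreated) and 0.202 (*Gpt*, Cort).

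Of these members, *Ass1* and *Asl*, which act in turn in the cytosolic arm of the cycle, had no overlap between genotypes after 3 weeks of Dex. *Ass1* was at 2591, 2643 and 2691 CPM in E47KO and at 1856 and 2344 CPM in WT livers, a log2 difference of 0.34 ± 0.19 (SE). *Asl* was at 914, 960 and 1112 CPM in E47KO and at 824 and 880 CPM in WT livers (0.23 ± 0.17). Both missed the threshold (adjusted p from edgeR 0.999 for *Ass1*), and 15.1% of all genes tested had no overlap between these 3 and 2 libraries.

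**Figure D2:**
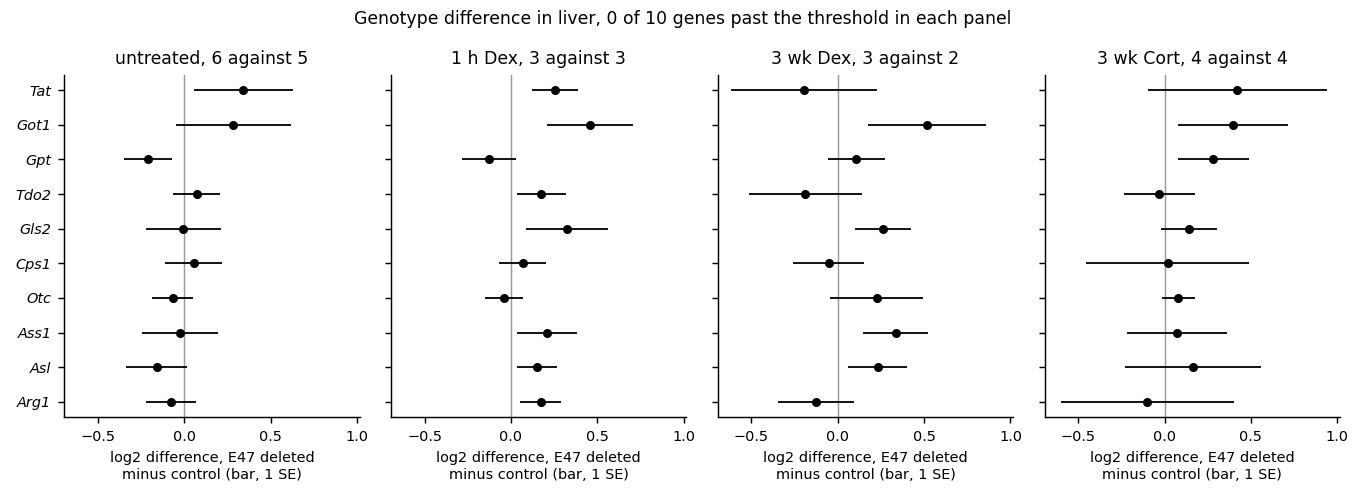
Log2 difference between genotypes for the 10 genes in the 4 liver sets (E47KO minus WT, or E47LKO minus floxed); bars are ± 1 SE of the edgeR fit. The differences run from -0.21 to 0.52 and 0 of 10 genes pass the threshold in each panel.

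The summed level of the 5 urea cycle genes was likewise close between genotypes. It was 11802 ± 1129 CPM in untreated WT (SD, n = 5) and 11656 ± 2349 CPM in untreated E47KO livers (n = 6), and 11768 ± 251 (n = 2) against 12038 ± 1111 CPM (n = 3) after 3 weeks of Dex. After Cort the sums were 6662 ± 2984 CPM in WT and 6791 ± 3239 CPM in E47KO livers (n = 4 each), and after 1 h of Dex 12995 ± 994 CPM in floxed and 13981 ± 1941 CPM in E47LKO livers (n = 3 each). The SDs after Cort were larger than those of any other liver group. The Cort livers fall into a lower and a higher range of animal numbers, described below, in shares that differ by genotype. The lower range holds 1 WT and 2 E47KO livers, and the higher 3 WT and 2 E47KO livers. The Cort means were not compared within a range, so their closeness may not hold there.

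Whether the response to a hormone differed by genotype was tested as an interaction across the liver groups. For Cort against untreated, 3 weeks of Dex against untreated, and the genotype difference after Dex against that after Cort, 0 of 10 members passed (edgeR adjusted p under 0.05; 0.00616% of all genes in each). At an unadjusted p under 0.05 there were 1, 0 and 0 members, against 6.89%, 4.14% and 2.95% of all genes, and DESeq2 called 0. The 1 member was *Gpt*, whose difference between Cort and untreated livers was 0.50 ± 0.24 log2 units higher in E47KO than in WT mice (edgeR adjusted p = 0.707).

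An hour after the injection, *Tat* and *Tdo2* rose. *Tat*, which starts tyrosine breakdown, was at 4026, 4286 and 5401 CPM in the floxed livers, above all 5 untreated WT livers (1405 to 2890 CPM). The difference was 1.43 ± 0.42 log2 units, 2.69-fold (edgeR adjusted p = 0.0163). *Tdo2*, the first enzyme of the kynurenine route of tryptophan, was at 2544, 2690 and 3108 CPM against 1546, 1602, 1656, 1968 and 2077 CPM. These groups did not overlap either, and the difference was 0.71 ± 0.20 (1.64-fold, edgeR adjusted p = 0.0142). Both calls were lost without floxed replicate 1 (*Tat* 1.31, adjusted p = 0.0602, and *Tdo2* 0.64, adjusted p = 0.0625). Over all genes this comparison called 20.4%, 10.0% higher and 10.4% lower.

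*Got1* followed at 417, 565 and 675 CPM in floxed livers, against 200, 238, 273, 281 and 485 CPM in untreated WT livers. The groups touched only through the highest untreated liver, replicate 1, and the difference of 0.97 ± 0.37 missed the threshold (edgeR adjusted p = 0.0631). Without that untreated liver it was 1.21 (adjusted p = 0.0263). *Gpt* differed by -0.48 ± 0.19 (adjusted p = 0.0739). The urea cycle genes and *Gls2* gave differences of -0.50 (*Asl*) to 0.44 (*Cps1*) and none of these 6 genes passed. *Cps1* at 6003 to 6504 CPM lay above, and *Asl* at 451 to 627 CPM lay below, all untreated WT livers; in all, 4 of 10 members did not overlap, against 22.4% of all genes. The floxed livers carry floxed E47 alleles that the untreated WT livers lack, which cannot be told apart from the injection here.

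After 3 weeks of Dex the long-term pattern was led by a fall of *Otc*, the mitochondrial enzyme that joins carbamoyl phosphate to ornithine. It was at 153 and 249 CPM in WT livers, against 536, 587, 642, 682 and 738 CPM in untreated WT livers, and the groups lay far apart. The difference was -1.65 ± 0.19, a 3.14-fold lower level (edgeR adjusted p = 3.51e-07). In E47KO livers *Otc* was at 176, 254 and 272 CPM, below the 515 to 709 CPM (median 607.9) of 6 untreated E47KO livers, a difference of -1.36 ± 0.15 (2.56-fold lower, adjusted p = 2.06e-07). *Otc* passed the threshold in both genotypes under every alternative tried, leaving out any 1 library included.

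*Gls2*, which frees ammonium from glutamine beside the urea cycle, fell too. It was at 241 and 280 CPM in WT livers against 396, 478, 490, 539 and 595 CPM untreated, and at 276, 312 and 344 CPM in E47KO livers against 367 to 873 CPM (median 433). Neither genotype overlapped with its untreated livers. The differences were -0.92 ± 0.28 (edgeR adjusted p = 0.0140) and -0.66 ± 0.23 (adjusted p = 0.0280). Both rested on few livers: adjusted p was 0.0555 without WT Dex replicate 1 and 0.146 without replicate 2, and in E47KO mice 0.125 without Dex replicate 1, 0.0723 without Dex replicate 3 and 0.0816 without untreated replicate 2.

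*Ass1* fell in WT livers, from 2855, 3471, 3489, 4346 and 5097 CPM to 1856 and 2344 CPM (-0.86 ± 0.32, edgeR adjusted p = 0.0393), a call lost without either Dex liver (0.0873 and 0.272) or without untreated replicate 1 (0.0798) or 2 (0.0636). In E47KO livers it differed by -0.50 ± 0.26 (adjusted p = 0.136). *Tdo2* rose in WT livers, at 2493 and 3391 CPM above all 5 untreated ones (0.75 ± 0.23, adjusted p = 0.0136), and lost the call without Dex replicate 2 (0.51, adjusted p = 0.256). In E47KO livers *Tdo2* was at 1655, 2681 and 3364 CPM against 1523 to 2318 CPM (median 1881). The lowest of the 3 treated livers lay inside the untreated range, and the difference of 0.48 ± 0.20 had an adjusted p of 0.0537, which became 0.00598 without that liver (0.73).

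The other six members gave no call after 3 weeks of Dex. *Tat* differed by 0.65 ± 0.47 in WT and 0.11 ± 0.41 in E47KO livers. *Cps1* in WT livers (6230 and 6735 CPM) lay above all untreated ones (4493 to 5344 CPM), and *Gpt* (245 and 264 CPM) below all of them (273 to 461 CPM), without passing the test. *Asl* in E47KO livers (914 to 1112 CPM) lay above the untreated 452 to 848 CPM, with a difference of 0.52 ± 0.27 (edgeR adjusted p = 0.134). *Arg1* and *Got1* differed by -0.26 to 0.36 over both genotypes. In all, 1 member rose and 3 fell in WT livers, where 31.9% of all genes passed (15.6% higher and 16.3% lower), and 0 rose and 2 fell in E47KO livers, where 37.8% passed (19.4% higher and 18.4% lower). Groups did not overlap for 6 and 3 members, against 41.6% and 32.0% of all genes.

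**Figure D3:**
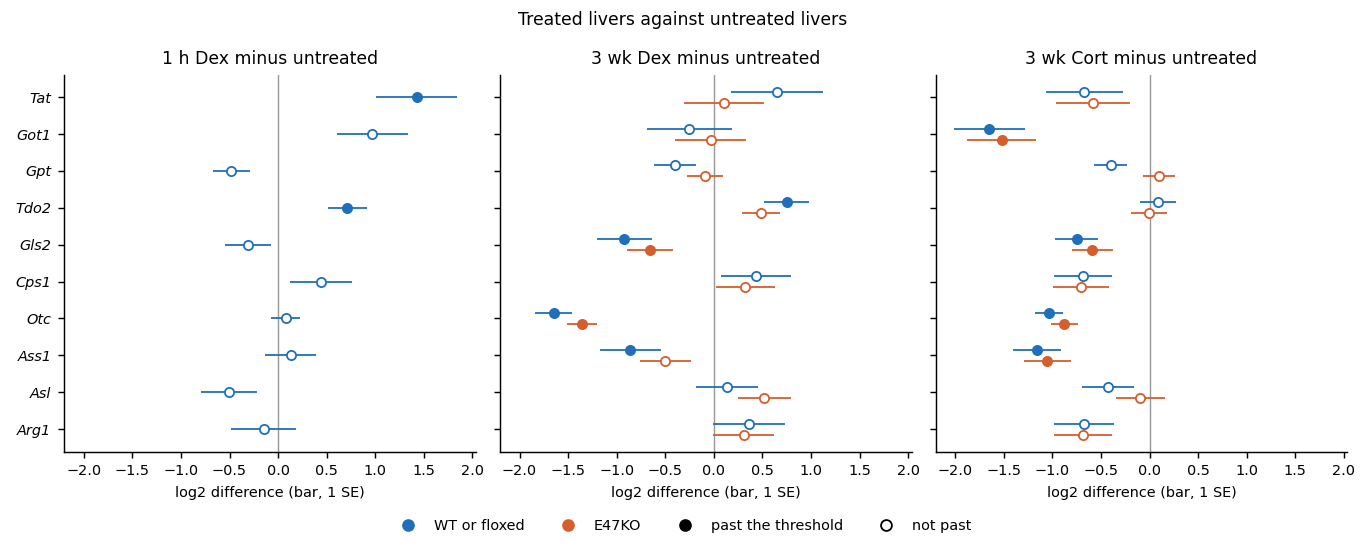
Log2 difference from untreated livers for the 10 genes after 1 h of Dex, 3 weeks of Dex and 3 weeks of Cort. Floxed livers at 1 h were set against untreated WT livers, and the other groups against untreated livers of their genotype. Bars are ± 1 SE of the edgeR fit and filled points passed an adjusted p of 0.05. *Otc* is near 0 at 1 h (0.08) and between -1.65 and -0.88 after 3 weeks of either hormone.

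After 3 weeks of Cort, *Otc*, *Got1*, *Ass1* and *Gls2* fell in both genotypes and no member rose. *Otc* was at 259, 319, 330 and 335 CPM in WT and at 311, 329, 334 and 336 CPM in E47KO livers. Every treated liver was below every untreated liver of its genotype (lowest 536 and 515 CPM), and the differences were -1.03 ± 0.14 (edgeR adjusted p = 6.92e-06) and -0.88 ± 0.14 (adjusted p = 2.15e-05). *Otc* passed under every alternative tried here as well.

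*Got1*, which links aspartate and glutamate in the cytosol, was at 81.6, 82.8, 97.8 and 114 CPM in WT livers against 200 to 485 CPM untreated. In E47KO livers it was at 69.9, 82.8, 127 and 213 CPM against 144 to 550 CPM (median 414.2). The WT groups lay apart and the E47KO groups overlapped through Cort replicate 3. The differences were -1.65 ± 0.36 (3.13-fold lower, edgeR adjusted p = 0.00117) and -1.52 ± 0.35 (2.88-fold lower, adjusted p = 0.00135).

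*Ass1* was at 1167, 1491, 1622 and 2574 CPM in WT livers, below all untreated ones (2855 to 5097 CPM). In E47KO livers it was at 1301, 1316, 2101 and 2475 CPM, and the highest of these reached into the untreated range of 2311 to 5430 CPM (median 3667). It fell by 1.16 ± 0.25 and 1.05 ± 0.24 on the log2 scale (edgeR adjusted p = 0.000921 and 0.00126). *Gls2* was at 254 to 370 CPM in the 4 WT livers, below all untreated ones, and at 273, 275, 362 and 393 CPM in E47KO livers, and fell by 0.75 ± 0.22 and 0.59 ± 0.21 (adjusted p = 0.0101 and 0.0279). The E47KO call for *Gls2* was lost without Cort replicate 1 (adjusted p = 0.0898) or 2 (0.0916) or untreated replicate 2 (-0.34, adjusted p = 0.108).

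These 4 falls stood against 33.2% of all genes called in WT (17.0% higher and 16.1% lower) and 38.9% in E47KO livers (21.0% higher and 18.0% lower). The members' median difference was -0.68 in WT and -0.64 in E47KO livers, and the median over all genes was 0.01 and -0.01. Of the other members, *Cps1* differed by -0.68 and -0.71, *Arg1* by -0.67 and -0.69, *Tat* by -0.67 and -0.58 and *Asl* by -0.43 and -0.09 in WT and E47KO livers, with adjusted p-values from edgeR of 0.0523 to 0.798. *Gpt* (-0.40 and 0.10) and *Tdo2* (0.09 and -0.00) did not pass either. Groups of libraries did not overlap for 4 members in WT and for 1, *Otc*, in E47KO livers, against 23.8% and 25.9% of all genes.

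Leaving out 1 liver changed several of these calls. Without WT Cort replicate 3, 8 members were called lower in WT mice, adding *Cps1* (-1.13, edgeR adjusted p = 0.00487), *Arg1* (-1.01), *Asl* (-0.80) and *Gpt* (-0.58). Without E47KO Cort replicate 3, 7 members were called lower, adding *Tat* (-1.35, adjusted p = 0.00512), *Cps1* (-1.10) and *Arg1* (-1.04).

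The spread among the Cort livers followed the animal numbers, which in the labels fall into a range of 2 to 15 (3 livers, WT replicate 1 and E47KO replicates 1 and 2) and a range of 195 to 203 (5 livers). For 7 of 10 members every lower-numbered liver was below every higher-numbered liver, and for 0 was every one above; over all genes, 7.64% lay wholly below and 7.70% wholly above. *Cps1* was at 1544 to 1679 CPM in the lower-numbered and 2385 to 5340 CPM in the higher-numbered livers, *Arg1* at 432 to 480 and 936 to 1691, and *Asl* at 332 to 424 and 507 to 987 CPM, with ratios of the medians of 2.37, 2.80 and 2.22. *Tat*, *Tdo2*, *Ass1* and *Gls2* were split in the same direction. *Otc* was not (259 to 334 against 319 to 336 CPM), nor were *Got1* and *Gpt*.

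Both ranges hold both genotypes. *Fkbp5*, a GR target used as a sign of hormone action, was at 56.6 to 77.9 CPM in the lower-numbered and 290 to 539 CPM in the higher-numbered livers. Untreated livers held 19.6 to 114 CPM of *Fkbp5* in WT and 37.5 to 119 CPM in E47KO mice. The 7 hepatocyte markers summed to 110428 to 121559 and 125992 to 167325 CPM, the 7 skeletal muscle markers to 0 to 0.0260 and 143 to 197 CPM, and the 4 macrophage markers to 32.5 to 42.6 and 42.2 to 64.6 CPM. The part of hormone exposure, cell makeup or batch in the members' split was not tested.

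Within each range the members' calls differed. With the 3 lower-numbered livers left out, *Otc* alone passed in E47KO mice (-0.85, edgeR adjusted p = 0.00142), while *Got1* (-1.06, adjusted p = 0.0728), *Ass1* (-0.70, 0.0630) and *Gls2* (-0.37, 0.321) did not. In WT mice, *Otc* (-0.95), *Got1* (-1.66), *Ass1* (-1.01) and *Gls2* (-0.67) all passed without the lower-numbered liver. With the higher-numbered livers left out, 8 members passed in E47KO mice and 7 in WT mice, where 1 treated liver remained and was assumed to vary like the others; *Arg1* then differed by -1.73 and -1.99 and *Cps1* by -1.67 and -1.56. In WT mice, *Got1* then differed by -1.63 and *Gls2* by -1.01, and neither kept its call with that 1 treated liver. The Cort call of *Gls2* in WT mice was also lost without the lower-numbered untreated livers (-0.63, edgeR adjusted p = 0.0578). Untreated livers were ordered by library number and not by animal number.

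**Figure D4:**
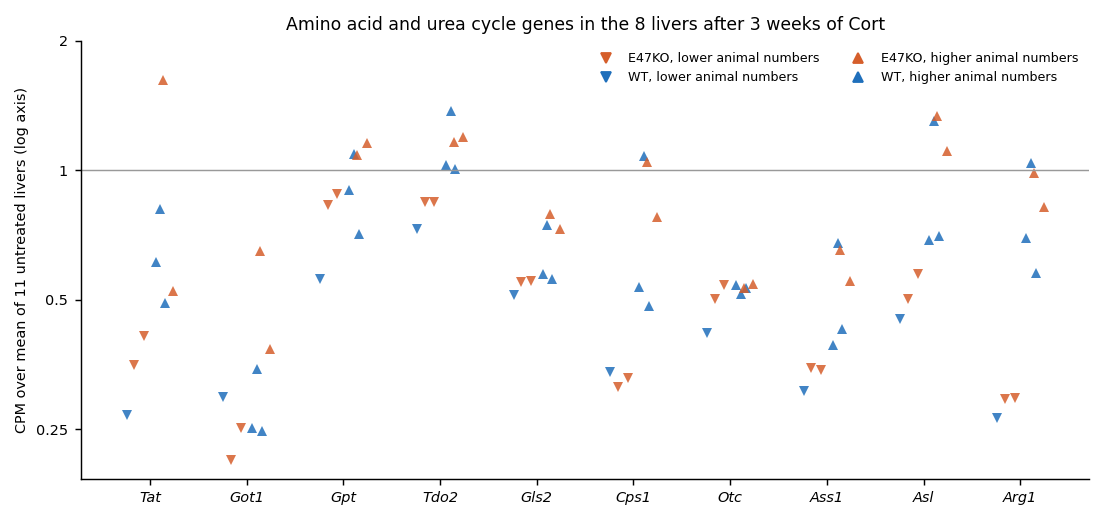
Level of each of the 10 genes in the 8 Cort livers, as CPM divided by the mean of the 11 untreated livers on a log axis; downward triangles are the 3 animals numbered 2 to 15 and upward triangles the 5 numbered 195 to 203. *Cps1*, *Arg1* and *Asl* are lower in all 3 lower-numbered livers, while *Otc* overlaps between the ranges.

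All treatment comparisons used the same untreated livers of each genotype, so they are not independent of each other, and their values are set side by side without a test of likeness. In WT livers, *Otc* differed from untreated by -1.65 with Dex and -1.03 with Cort over 3 weeks, *Gls2* by -0.92 and -0.75, and *Ass1* by -0.86 and -1.16. *Got1* differed by -0.26 with Dex and -1.65 with Cort, and *Cps1* by 0.43 and -0.68. The doses in the water were not equal (10 and 100 µg/ml), and the hormones differ in potency, so the levels after Dex and after Cort were not tested against each other.

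The GR reference genes gave the following differences in the same fits. *Fkbp5* rose after 3 weeks of Dex (3.15 in WT and 2.14 in E47KO livers) and of Cort (2.32 and 1.83), and was 1.39 at 1 h (edgeR adjusted p = 0.109). The E47KO Cort call was lost without Cort replicate 3 (1.31, adjusted p = 0.0733). The 3 lower-numbered Cort livers, at 56.6 to 77.9 CPM, lay inside the untreated ranges (19.6 to 114 CPM in WT and 37.5 to 119 CPM in E47KO mice). At 1 h *Tsc22d3* rose (1.72) and *Per1* fell (-1.46), calls lost without floxed replicate 1 (adjusted p = 0.0580 for *Tsc22d3*) and, for *Per1*, without any 1 of the 3 floxed livers or without untreated WT replicate 2 or 3. *Nr3c1*, the gene of GR, fell with Cort in E47KO livers (-0.47, adjusted p = 0.0225) and was at -0.39 in WT livers (adjusted p = 0.0717). *Tcf3* rose with Cort (0.35 and 0.61) and fell at 1 h (-0.99). *Klf15*, a factor known to drive amino acid breakdown genes, passed in no treatment comparison.

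Around the members, 50 further genes of amino acid metabolism in 6 lists were followed, 49 of which could be tested. In WT livers 6 rose and 17 fell with Cort, and 8 rose and 14 fell with 3 weeks of Dex. In E47KO livers 5 rose and 15 fell with Cort, and 8 rose and 12 fell with Dex. At 1 h, 9 rose and 6 fell. The medians over the tested genes of the lists were -0.25, -0.20, -0.16, -0.13 and 0.03 in that order, against all-gene medians between -0.04 and 0.01. Of all genes, 17.0% rose and 16.1% fell with Cort and 15.6% and 16.3% with Dex in WT livers, 21.0% and 18.0% with Cort and 19.4% and 18.4% with Dex in E47KO livers, and 10.0% and 10.4% at 1 h. The counts of each list below stand against these shares, and several are near them. Between genotypes, and for the interactions, 0 of these genes passed by edgeR.

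The 11 aromatic amino acid genes, which take up the products of *Tat* and *Tdo2*, fell in part in all 4 long-term comparisons: 7 with Cort and 6 with Dex in WT, and 6 and 5 in E47KO livers. With Cort, *Hgd*, homogentisate dioxygenase, was at 440 to 501 CPM against 640 to 1293 CPM in WT livers (-0.89 ± 0.17), and *Gstz1*, which follows it in tyrosine breakdown, fell by 0.49 ± 0.09 in WT and 0.43 ± 0.09 in E47KO livers. At 1 h no gene of this list fell and 2 rose, among them *Kynu*, kynureninase (268 to 298 CPM against 161 to 235 CPM, 0.61 ± 0.13).

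Of the 5 genes that serve the urea cycle directly, *Car5a*, the mitochondrial carbonic anhydrase that supplies bicarbonate to *Cps1*, fell with 3 weeks of Dex in both genotypes. It was at 10.1 and 19.8 CPM in WT livers against 47.7 to 67.6 CPM untreated (-1.94 ± 0.28, edgeR adjusted p = 7.61e-06), and at 12.1 to 21.9 CPM in E47KO livers against 46.5 to 75.2 CPM (-1.81 ± 0.23). *Slc25a15*, the carrier that brings ornithine to *Otc*, rose at 1 h, from 269 to 463 CPM to 682 to 1139 CPM (1.50 ± 0.19, adjusted p = 3.8e-06). *Nags*, which makes the activator of *Cps1*, fell at 1 h (31.1 to 45.7 CPM against 56.9 to 64.4 CPM, -0.60 ± 0.10) and rose with Cort in E47KO livers (74.9 to 83.4 CPM against 47.6 to 61.8 CPM, 0.53 ± 0.09).

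Of the 7 sulphur amino acid genes, 3 rose and 0 fell with Dex in WT livers, and 4 rose and 0 fell in E47KO livers. *Mat1a*, which makes S-adenosylmethionine, was at 5695 and 9367 CPM in WT livers against 3043 to 3843 CPM untreated (1.13 ± 0.18, edgeR adjusted p = 3.28e-05) and differed by 1.34 ± 0.15 in E47KO livers. In the list for serine, glycine and related amino acids, Dex gave 2 rises and 4 falls in WT livers and 2 and 2 in E47KO livers: *Gldc*, of the glycine cleavage system, rose by 1.49 ± 0.29 and 1.47 ± 0.25, and *Aldh4a1*, of proline breakdown, fell by 1.22 ± 0.20 and 1.10 ± 0.16. With Cort, *Agxt*, alanine-glyoxylate aminotransferase, fell in WT livers (78.8 to 129 CPM against 178.5 to 400.4 CPM, -1.47 ± 0.28), and *Prodh2* rose in E47KO livers (0.77 ± 0.17). At 1 h *Amt*, of the glycine cleavage system, rose (64.9 to 66.4 CPM against 28.3 to 46.6 CPM, 0.87 ± 0.13).

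Of the 6 branched-chain amino acid genes, 2 fell with 3 weeks of Dex in WT and 3 in E47KO livers, against 16.3% and 18.4% of all genes. *Ivd*, isovaleryl-CoA dehydrogenase of leucine breakdown, was at 123 and 154 CPM in WT livers against 261 to 338 CPM untreated (-1.12 ± 0.20). It fell in E47KO livers with Dex (-0.97 ± 0.16) and in WT livers with Cort (-0.77 ± 0.15). *Bcat2*, the mitochondrial branched-chain aminotransferase, rose with Cort in E47KO livers (52.3 to 65.2 CPM against 15.2 to 29.0 CPM, 1.44 ± 0.17, edgeR adjusted p = 8.02e-07) and fell at 1 h (9.37 to 13.5 CPM against 18.5 to 32.7 CPM). In the glutamate and glutamine list, 1 gene rose and 2 fell with Cort in each genotype, 1 rose and 1 fell with Dex in WT livers, 1 fell with Dex in E47KO livers, and 1 rose at 1 h.

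Several members share their reaction with a second isoenzyme, and the balance of the pair is given per kilobase of exon. *Got1* made 38.8 to 65.7% of *Got1* plus *Got2*, the mitochondrial form, in untreated livers, 60.1 to 78.5% after 1 h of Dex and 21.1 to 43.4% after Cort. *Got2* itself passed in no treatment comparison. *Gpt* made 33.9 to 54.6% of *Gpt* plus *Gpt2* over all 30 livers, and *Gpt2* did not pass either. *Arg1* made at least 99.9% of *Arg1* plus *Arg2* in every liver, to 3 digits. *Arg2*, at under 1.1 CPM, rose with 3 weeks of Dex (2.68 in WT, edgeR adjusted p = 0.00203, and 1.51 in E47KO livers, adjusted p = 0.0400).

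In muscle and WAT of the Dex mice, where 2 or 3 animals stood in each group, nearly all members were at a small share of their liver level. *Cps1* was at 5781 to 6993 CPM in the 5 livers, at 0.284, 0.419, 1.02 and 1.31 CPM in WAT, and at 0, 0.0216, 0.0238, 0.791 and 21.2 CPM in muscle. *Otc* was at or below 0.0783 CPM in WAT and at 0 counts in 3 of 5 muscles. *Tat* was at 0.335 to 1.30 CPM in WAT and at 0 to 7.18 CPM in muscle. The highest muscle value of these genes came from WT replicate 2.

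*Got1* was the exception, at 321 and 322 CPM in WT muscle, 336, 363 and 380 CPM in E47KO muscle and 216 to 505 CPM in liver, against 8.78 to 11.1 CPM in WAT. Liver minus muscle was -0.33 ± 0.19 (edgeR adjusted p = 0.126), and it was -0.52 (adjusted p = 0.00462) without E47KO liver replicate 2. *Gpt* and *Asl* were counted in WAT well above muscle: *Gpt* at 56.3 to 65.2 against 10.7 to 18.7 CPM and *Asl* at 21.1 to 23.0 against 3.96 to 7.18 CPM. By the animal numbers in the labels, 3 of these mice gave both liver and muscle, which the fits did not use.

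By edgeR, 9 of 10 members were higher in liver than in muscle (76.4% of all genes differed, 36.0% higher and 40.4% lower), from *Gpt* (4.23 ± 0.14) to *Tdo2* (11.83), and 10 of 10 were higher in liver than in WAT (75.4%, 33.8% higher and 41.6% lower), from *Gpt* (2.09 ± 0.14) to *Cps1* (13.00 ± 1.69). Muscle against WAT gave 5 of 10 calls (77.3% of all genes, 33.8% higher and 43.5% lower): *Got1* (5.16 ± 0.24) and *Ass1* (1.26 ± 0.35) higher, and *Gpt* (-2.14 ± 0.13), *Asl* (-2.001 ± 0.16) and *Arg1* (-2.25 ± 0.73) lower. Without WT muscle replicate 2, in which *Ass1* was at 10.3 CPM against 2.31 to 2.96 CPM in the other muscles, *Ass1* differed by 0.54 (adjusted p = 0.0299). The *Arg1* call was lost without E47KO WAT replicate 2 (-1.84, adjusted p = 0.0510), and 9 members were called without WT muscle replicate 2. The median of all genes was shifted by -0.11, -0.19 and -0.25 in the 3 comparisons. For *Cps1*, *Otc* and *Tat* in muscle the counts were so near 0 that the fitted size depends on the fit's prior count. Outside WT replicate 2, muscle counts were also low for *Tdo2* (1 to 18), *Arg1* (1 to 20) and *Gls2* (6 to 8). With each library left out, *Tdo2* ran from 11.32 to 14.36 for liver minus muscle. *Arg1* ran from -4.97 to -1.75 for muscle minus WAT.

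**Figure D5:**
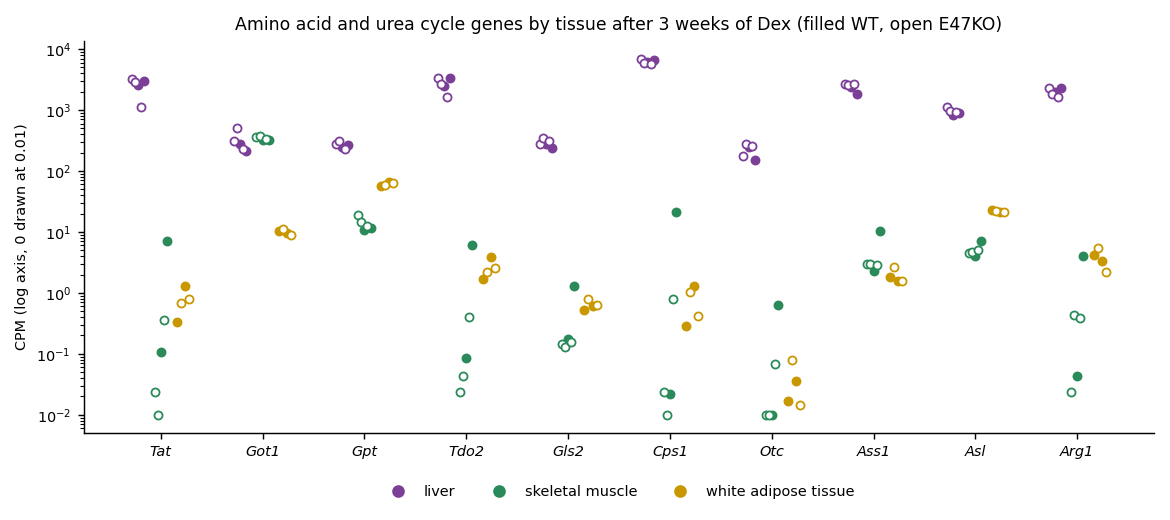
CPM of each of the 10 genes (log axis, 0 drawn at 0.01) in liver, muscle and WAT after 3 weeks of Dex; filled points are WT and open points E47KO. *Got1* is as high in muscle (321 to 380 CPM) as in liver (216 to 505 CPM), and the other genes are highest in liver.

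Between genotypes in WAT, 0 of 9 members tested differed (edgeR adjusted p under 0.05, 0% of all genes, and 38 genes by DESeq2), with 0 members at an unadjusted p under 0.05 (4.29% of all genes) and 0 by DESeq2. In muscle 0 of 8 did (0.0134% of all genes), and 0 by DESeq2. At an unadjusted p under 0.05 (3.94% of all genes) there were 3 of 8: *Cps1* (-5.24), *Tat* (-4.76) and *Tdo2* (-4.21). WT muscle replicate 2 held the highest level of each of these 3, and there the hepatocyte markers summed to 247 CPM, with *Alb* at 0.137% of its mean level in Dex livers. *Cps1* stood at 0.335%, *Tat* at 0.283% and *Tdo2* at 0.222% of that level, and the part of liver RNA in these differences was not tested. Without it, *Cps1* differed by 3.46 and *Tat* by 0.22. Liver minus muscle and liver minus WAT did not differ by genotype for any member (edgeR, 0% of all genes). At an unadjusted p under 0.05 there were 6 and 0 members, against 4.60% and 3.27% of all genes, and DESeq2 called 0. The 6 were for liver minus muscle, a comparison that includes WT muscle replicate 2. With each library left out in turn, *Cps1* ran there from -3.54 to 9.47. *Gls2*, which had the lowest p, ran from 0.52 to 3.40.

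The isoenzyme balance was also taken in muscle and WAT. *Got1* made 56.6 to 62.7% of the *Got* pair in muscle. *Gpt* made 4.17 to 8.99% of the *Gpt* pair in muscle and 33.2 to 40.6% in WAT. *Got2* was at 519 to 557 CPM in liver and 410 to 508 CPM in muscle, and at 21.0 to 25.6 CPM in WAT (liver minus WAT 4.53 ± 0.13). Of the 49 pathway genes tested, 43 were higher and 3 lower in liver than in muscle, and 40 higher and 6 lower than in WAT, 4 of the 6 lower ones among the branched-chain genes. *Nags* and *Slc25a13*, the aspartate-glutamate carrier of the urea cycle, were at 0 to 0.101 CPM and 0.384 to 0.886 CPM in muscle, against 49.2 to 59.0 CPM and 339 to 412 CPM in liver.

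The 10 genes lie on mm10 at chr8:109990437-109999803 (*Tat*), chr19:43499752-43524605 (*Got1*), chr15:76695716-76699686 (*Gpt*), chr3:81957090-81976202 (*Tdo2*), chr10:128194457-128210004 (*Gls2*), chr1:67123026-67231259 (*Cps1*), chrX:10252305-10321024 (*Otc*), chr2:31470207-31520672 (*Ass1*), chr5:130011258-130029247 (*Asl*) and chr10:24915221-24927484 (*Arg1*). The counts are over their exons. The exons of *Gls2* overlap *Spryd4* on the other strand in 97 bases, 2.79% of their length, and no other member's exons overlap another gene.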

How the data were processed

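The deposited files hold whole-number counts of reads per Ensembl gene. The authors aligned reads to mm10 with STAR 2.4.2a against Ensembl gene models; HTSeq and DESeq2 are also named per the labels, and which tool counted the 3-week Dex files is not given in the sources used here. Other files hold an unstranded and 2 stranded counts per gene; the unstranded counts were used for all libraries, since the Cort libraries held 50.1% of stranded counts on the larger strand and the other stranded libraries 96.9 to 97.7%. Counts under entries naming no gene (20.8 to 36.8% of all counts) were left out. Deposited tables of the authors' own comparisons (fold changes and p-values) were not used. Symbols were matched for 45229 genes.

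Levels are CPM with TMM factors over all 39 libraries. Comparisons used edgeR 4.0.16 (R 4.3.3; quasi-likelihood test, TMM, filterByExpr with a minimum count of 10 and a total of 15, Benjamini-Hochberg adjusted p under 0.05 over all genes tested). Genotypes were compared within each set, treatments and interactions in a fit of all liver groups, and tissues within the Dex mice. SE is the log2 difference divided by the root of F. Pairwise fits were also run on simulated counts with the same spread for every gene and no batches. That setting differs from these data and from the joint fits, so no result here rests on it. Alternatives were DESeq2 1.42.0, other size factors, no filter and the strand column. Further ones were a replicate block, a batch covariate, only the groups compared, and each library left out. The labels name no batch, so that covariate was built from wide gaps in animal numbers, or in library numbers for untreated livers. Leaving out ranges of these numbers was added after seeing the data. No pair of libraries of a group agreed within sampling noise. The labels do not say that each library is a separate animal throughout, so p-values measure the spread between samples.

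The members and lists were chosen with earlier results of these data known. All members were followed in every comparison, and the text names each or, where it gives a range, those at its ends. From the 6 pathway lists it takes, per comparison, at most 5 called genes without overlap between the libraries of both sides, ranked by adjusted p. *Tcf3*, *Nr3c1*, *Klf15*, *Per1*, *Fkbp5*, *Tsc22d3* and the second isoenzymes of *Got1*, *Gpt* and *Arg1* are named throughout. Some results that the rule covers are not reported here.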

Additional observations from a re-analysis of the deposited data

Results flagged for a closer look

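In 4 of 40 tests of a member within a liver group of 4 to 6 samples, 1 liver stood apart from the rest of its group by Dixon's test, which chance alone gives in about 1 in 20 groups. *Tat* was at 3291 CPM in E47KO Cort replicate 3, against 1063 CPM in the nearest liver of that group, and at 2890 CPM in untreated WT replicate 1, against 1708 CPM. *Got1* was at 485.4 CPM in the same untreated WT liver, against 281.4 CPM. *Gls2* was at 873 CPM in untreated E47KO replicate 2, against 471.4 CPM. Without untreated WT replicate 1, *Got1* passed the threshold at 1 h of Dex (1.21 on the log2 scale), and without untreated E47KO replicate 2 the fall of *Gls2* with Cort in E47KO livers (-0.34) did not. What sets these livers apart was not tested.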

How the results depend on the processing

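With RLE size factors, the strand column, DESeq2, a replicate block, a batch covariate or no filter, no member was called between genotypes in any tissue. Of 163 gene differences, 2484 values were recomputed: 2334 kept their direction and side of the threshold, 38 lost a call, 50 gained a call and 62 changed sign, of which 1 was called (*Fkbp5*, Cort in E47KO livers). Replicate numbers did not pair the samples (correlations of same-numbered deviations -0.49 to 0.75), and the replicate block moved no count of members by over 1.5 times. WAT could not be blocked, since its groups share 1 number. With the block, *Cps1* was called with Cort (-0.80 in WT and -0.77 in E47KO livers), and the sign of *Tat* turned between genotypes after 3 weeks of Dex (0.15).

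Members past the threshold ranged, with each library left out in turn, from 4 to 8 (Cort, WT), 3 to 7 (Cort, E47KO), 1 to 4 (3 weeks of Dex, WT), 1 to 2 (3 weeks of Dex, E47KO), 1 to 3 (1 h of Dex), 4 to 9 (muscle against WAT) and 0 to 2 (genotype difference of liver minus muscle). Leaving out number ranges, chosen after seeing the data, gave 7 (Cort, WT) and 8 (Cort, E47KO) without higher-numbered Cort livers, 1 (Cort, E47KO) without lower-numbered ones, and 2 (3 weeks of Dex, WT) without lower-numbered untreated livers. A fit of only the groups compared gave 1 (3 weeks of Dex, E47KO), and it put *Tdo2* with Cort in E47KO livers at 0.0098.

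Signs turned as follows, the cause not tested. Without higher-numbered Cort livers, WT differences were -0.45 (*Tdo2*), -1.51 (*Per1*) and -0.93 (*Tsc22d3*), and E47KO ones -0.12 (*Gpt*), -0.95 (*Per1*), -0.015 (*Fkbp5*) and -1.09 (*Tsc22d3*). Without lower-numbered ones, E47KO differences were 0.22 (*Tdo2*) and 0.39 (*Asl*), and *Arg1* between genotypes was 0.24 (0.21 with the batch covariate). *Got1* with Dex was 0.057 (WT) and 0.13 (E47KO) without lower-numbered untreated livers, and 0.016 (E47KO) with the strand column.

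With each library left out, log2 differences that changed sign ranged as follows. Between genotypes they were, for *Tat*, -0.45 to 0.14 (Dex liver), -0.34 to 0.68 (Cort liver) and -5.74 to 0.22 (muscle). *Arg1* gave -0.45 to 0.23 (Cort liver), *Gpt* -0.25 to 0.034 (1 h of Dex), *Tdo2* -0.72 to 0.45 and *Ass1* -0.12 to 0.65 (WAT), and *Cps1* -6.24 to 3.46 (muscle). With Cort, *Tdo2* gave -0.090 to 0.23 (WT) and -0.090 to 0.076 (E47KO), and in E47KO livers *Asl* gave -0.37 to 0.10, *Per1* -0.33 to 0.68 and *Tsc22d3* -0.55 to 0.53. With 3 weeks of Dex, *Per1* gave -0.069 to 0.42 (WT), and in E47KO livers *Tat* gave -0.14 to 0.46, *Got1* -0.40 to 0.21 and *Gpt* -0.18 to 0.022. At 1 h *Ass1* gave -0.00080 to 0.24. Interactions gave -0.23 to 0.086 (*Tdo2*, Cort), -0.024 to 0.69 (*Otc*, Dex), and -0.024 to 0.45 (*Ass1*) and -0.90 to 0.13 (*Tat*) for Dex minus Cort. Muscle against WAT gave -2.59 to 0.56 (*Tat*), -3.12 to 1.99 (*Cps1*) and -2.01 to 2.03 (*Otc*). The genotype differences of tissue differences gave -3.54 to 9.47 (*Cps1*, muscle) and -1.26 to 0.93 (*Otc*, WAT).

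Over all genes, edgeR's genotype calls were few and moved with the setting: DESeq2 gave 25, 258, 20, 4, 38 and 90 genes (liver after Dex, Cort, untreated and 1 h of Dex, then WAT and muscle) against 1, 4, 4, 0, 0 and 2, and no filter 62, 13, 8, 1, 6 and 37. The block gave 0 (Dex liver), 29 (Cort), 2 (untreated) and 1 (muscle), the batch covariate 0 (Dex liver), 67 (Cort) and 4 (muscle). Only the groups compared gave 2911 against 5182 genes (3 weeks of Dex, WT) and 1657 against 3309 (1 h). Counts near 0 in muscle and WAT limit *Cps1*, *Otc*, *Tat* and *Tdo2* there, and low counts limit *Arg1* and *Gls2* in muscle. Groups of 2 or 3 samples limit every Dex result.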

Other observations

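Of 6 amino acid transporter genes, 3 fell with Cort in WT and 4 in E47KO livers, and 0 rose (edgeR adjusted p under 0.05; of all genes, 16.1% and 18.0% fell). They were named after their values were seen. *Slc7a2*, which carries arginine and other cationic amino acids, fell by 1.51 in WT and 1.64 in E47KO livers on the log2 scale. *Slc38a3*, a glutamine carrier, fell by 1.30 and 0.80, and *Slc38a4* fell by 0.66 and 0.70. *Slc38a3* fell with 3 weeks of Dex (-1.76 in WT and -1.45 in E47KO livers) and at 1 h (-1.09), while *Slc38a2*, which fell with Cort in E47KO livers (-0.66), rose at 1 h (1.83).

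Urea cycle enzymes are made mainly by hepatocytes near the portal vein, and genes of both ends of the lobule were counted. Of 8 pericentral genes, 4 fell with Cort in WT and 3 in E47KO livers and 0 rose, against 16.1% and 18.0% of all genes falling, with *Cyp1a2* at -1.58 and -0.82 and *Oat*, ornithine aminotransferase, at -1.28 and -0.72. Of 7 periportal genes, 1 rose and 1 fell in WT livers and 1 fell in E47KO livers. With 3 weeks of Dex, 3 pericentral genes fell and 1 rose in WT livers, and 2 fell and 2 rose in E47KO livers, while 3 and 2 periportal genes fell and 1 rose in each. Of all genes, 16.3% fell in WT and 18.4% in E47KO livers with Dex, and nothing particular to either list is drawn from such short counts.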
